A study of Drosophila melanogaster with 46 samples.

Results

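Tetraspanins are small proteins that cross the membrane several times and gather receptors, integrins and proteases into patches of the plasma membrane and of endosomes. In flies they are known from synapse formation, from the turnover of rhodopsin in photoreceptors, from the septate junctions of the gut and from the control of the ADAM protease Kuzbanian, which cleaves Notch. All genes of the count table whose FlyBase symbol starts with Tsp and a digit were taken, together with late bloomer (lbm), a tetraspanin of motor neuron growth cones. This gave 35 of 17490 genes. In a later annotation of the Release 6 assembly, 18 of the 35 lie side by side on chromosome 2R at 42E within 73.4 kb, among 9 other genes, with 15 on the plus strand and 3 on the minus strand. The other 17 are spread over chromosomes 2L, 2R, 3L, 3R and X.

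RNA was sequenced from fly heads in 46 libraries of 4 groups, taken at 4 h steps through 2 cycles of light and dark, from ZT0 (lights on) to ZT44. WT, inc1 and wakeD2 flies were 27 days old (10, 12 and 12 libraries), and WT-old flies were 49 days old (12 libraries). WT and WT-old were the isogenic strain Canton-S w1118 (iso1CJ), and both mutants had been backcrossed to it for at least 5 generations. inc1 is a mutation of insomniac (inc), a partner of a Cullin-3 ubiquitin ligase that sleep requires, and wakeD2 one of wide awake (wake), which acts downstream of the clock to promote sleep at dusk. Each library was 1 pool of about 200 heads of both sexes, with no second pool at a timepoint, so the timepoints served as replicates and p-values measure the spread between these pools. For WT, ZT28 and ZT40 are not analysed here. In pooled heads, fewer cells of a type and less RNA per cell cannot be told apart.

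The libraries held 12630462 to 29802881 counted reads (median 22856683), and 3 counts in the smallest are 0.238 CPM (counts scaled to a fixed library total, the unit of all levels here). inc lay at 8.46 to 15.2 CPM in inc1 and 65.9 to 104.3 CPM in WT, and wake at 35.7 to 52.4 CPM in wakeD2 and 66.2 to 78.9 CPM in WT. Photoreceptor, neuron, glia and head fat body markers were present in every library. Markers of the male accessory gland, 10 genes that heads should lack, had a median over 1 CPM in 19 of 46 libraries: 3 of 10 in WT, 4 of 12 in inc1, 11 of 12 in wakeD2 and 1 of 12 in WT-old. Their summed level reached 43.8 CPM in WT, 242 CPM in inc1, 1197 CPM in wakeD2 and 46.8 CPM in WT-old, and their medians were 0.441, 0.587, 241 and 0.468 CPM. Testis and midgut markers were also high in wakeD2, with summed medians of 199 and 519 CPM in wakeD2 against 0.444 and 55.3 CPM in WT, while ovary markers summed to at most 0.857 CPM in any library. The comparison of wakeD2 with WT is therefore also given without these libraries, called libraries with body markers below, or with a body marker score in the model. The score is the summed level of the accessory gland and midgut markers on a log2 scale. Comparisons of wakeD2 with inc1 and WT-old, and the rhythm of wakeD2, are given with no such check.

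Levels of the members spanned several orders of magnitude. Per kb of merged exon, the scale on which genes can be compared, Tsp42Ee had the highest median over the 46 libraries (190.1 CPM per kb), followed by Tsp42Ej (139.9), Tsp97E (73.9), Tsp42El (64.8), Tsp42Ef (52.5) and Tsp42Ed (42.3). Tsp42Ej, also called sunglasses, is a lysosomal tetraspanin that degrades rhodopsin in photoreceptors. Of the 6 highest genes, 5 lie in the 42E cluster. The TspanC8 members, which escort Kuzbanian, were lower, with Tsp86D at 11.6, Tsp3A at 8.54 and Tsp26A at 6.30 CPM per kb. The most even member was Tsp66E, with a coefficient of variation of 8.33% over the 46 libraries, and the most variable of the tested ones were Tsp29Fa (84.6%) and Tsp2A (83.0%).

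**Figure D1:**
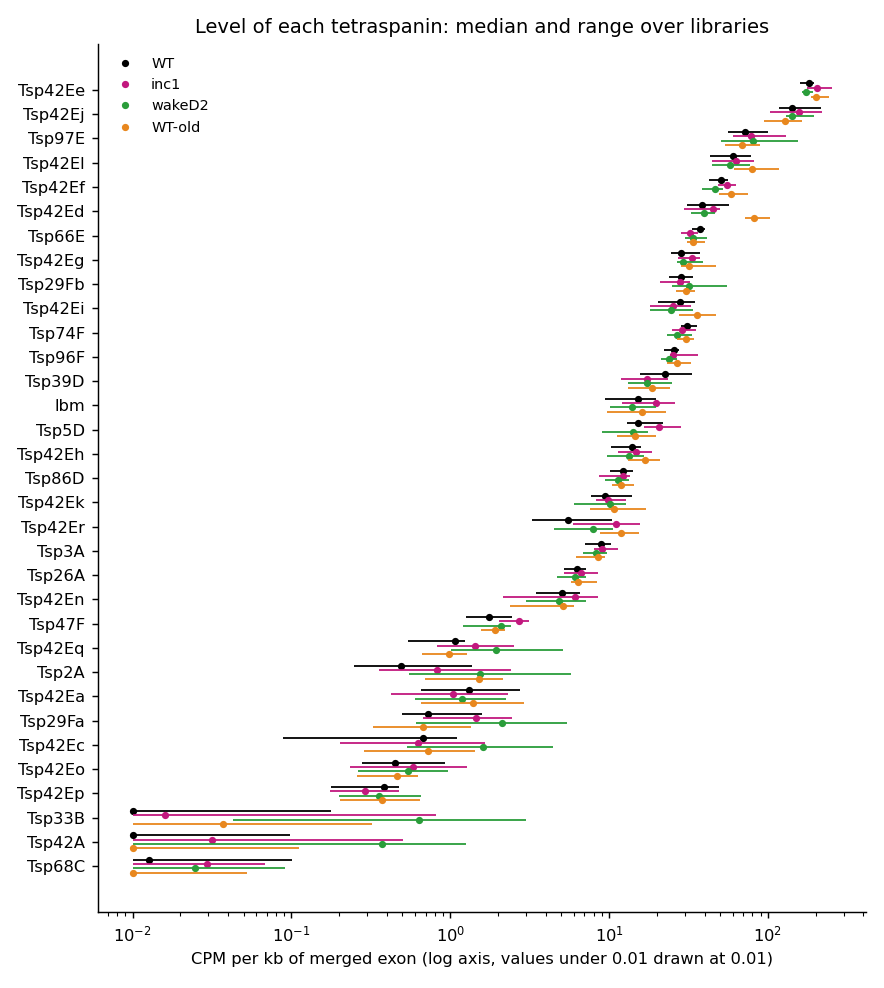
Level of 33 tetraspanin genes in CPM per kb of merged exon (log axis). Points are group medians and lines run from the lowest to the highest library of WT, inc1, wakeD2 and WT-old. Medians over all 46 libraries, which are not drawn, run from 190.1 CPM per kb for Tsp42Ee to 0.0242 for Tsp68C. Values under 0.01 are drawn at 0.01. Of the 28 tested genes only Tsp42Ed has a WT-old line that lies apart from the WT line. Tsp42Eb and Tsp66A, at 0 counts, are not drawn.

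Low members were not all tested. Genes below 1 CPM in over 28 libraries were left out of the tests, which kept 9969 genes and 28 members, 15 in the cluster and 13 elsewhere. The 7 not tested were Tsp33B, Tsp42A, Tsp42Eb, Tsp42Ec, Tsp42Eo, Tsp66A and Tsp68C. Tsp42Eb, which lies within the span of Tsp42Ea on the same strand, and Tsp66A had 0 counts in all 46 libraries, which in the smallest library allows up to 0.238 CPM. All exons of Tsp66A are shared on the same strand with CG42660 and CG42661, also at 0, and all 889 bp of Tsp42Eo exons lie opposite exons of Tsp42Ep, so the values of these genes are uncertain. Tsp42Ej and Tsp42Ek share 107 bp on the same strand, 53.6% of the Tsp29Fa exons lie opposite an antisense RNA with 52 counts in all, and 14.0% of the Tsp42Ei exons lie opposite CG33914.

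The first comparison asked which tetraspanins differ with age. Tsp42Ed and Tsp42Er were about 2-fold higher in WT-old heads, and 6 further genes of the 42E cluster rose by less. In all, 10 of 28 members were higher in WT-old than in WT (adjusted p under 0.05), where 15.3% of all genes were, and 3 were lower, where 12.4% of all genes were. The 10 were 8 of 15 tested cluster genes and 2 of 13 elsewhere. Tsp42Ed is counted among the 8, although its rise was known when these genes were chosen. The median log2 fold change was 0.19 over the cluster genes, -0.03 over the others and 0.0015 over all genes. Summed head fat body markers were lower in WT-old, with a median of 15609 CPM (2702 to 35545 CPM) against 31296 CPM (24494 to 37510 CPM) in WT. This sum mostly follows the yolk protein gene Yp1, with a median of 26619 CPM over all libraries (15.7 to 53559 CPM), ahead of apolpp at 6107 CPM. The sum is thus no measure of fat body alone, and the share of each sex in a pool is not given in the sources used here. Hemocyte markers had summed medians of 268 CPM in WT-old and 412 CPM in WT. The part of these markers in these results was not tested.

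Tsp42Ed (FBgn0029507, chromosome 2R from 7009498 to 7011739, minus strand) showed the clearest separation. In WT it was at 50.5, 47.6, 43.3, 48.4, 44.9 and 52.6 CPM from ZT0 to ZT20 and at 53.0, 38.8, 70.9 and 46.4 CPM at ZT24, ZT32, ZT36 and ZT44. In WT-old it was at 116.6, 93.8, 128.6, 110.2, 100.1 and 89.5 CPM on the first day and at 107.3, 104.3, 92.9, 98.9, 96.6 and 105.8 CPM on the second. Every WT-old library thus lay above every WT library, which held for 0.682% of all genes in this direction and 0.201% in the other, and for no other member. inc1 was at 37.0 to 62.5 CPM (median 56.0) and wakeD2 at 40.9 to 57.7 CPM (median 49.4), ranges that overlap WT. The log2 fold change in WT-old was 1.08 (standard error 0.0742, adjusted p = 6.8e-14), the third smallest p of the 9969 genes, and it was 0.94 to 1.20 in 14 alternative fits with adjusted p from 4.7e-45 to 8.7e-05. Against WT, inc1 differed by 0.12 (95% interval -0.02 to 0.27, adjusted p = 0.20) and wakeD2 by -0.01 (-0.16 to 0.14, adjusted p = 0.96). WT-old also exceeded inc1 by 0.95 (adjusted p = 1.2e-14) and wakeD2 by 1.09 (adjusted p = 6.2e-16) on the log2 scale. That Tsp42Ed rises in old flies was known when these genes were chosen, so its test is no independent support.

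**Figure D2:**
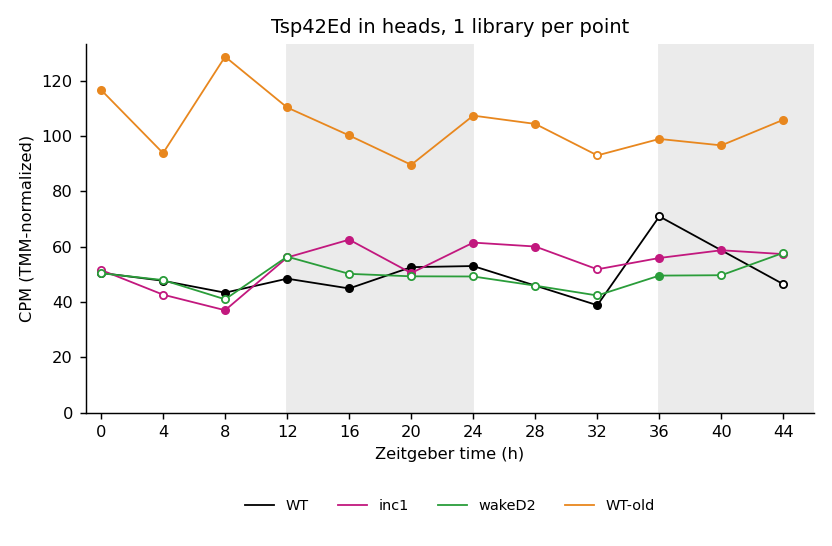
Tsp42Ed in CPM against Zeitgeber time in h, 1 library per point, for WT, inc1, wakeD2 and WT-old; open points are libraries with body markers and grey marks the dark hours. The 12 WT-old libraries sit between 89.5 and 128.6 CPM, above all libraries of the 3 other groups, whose highest is WT at ZT36 with 70.9 CPM.

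Tsp42Er (2R from 7064399 to 7066113) lies at the far end of the cluster and is much less abundant. It was at 2.79 to 8.81 CPM in WT (median 4.70) and at 7.46 to 13.0 CPM in WT-old (median 10.1), and of the WT libraries only that at ZT36, with 8.81 CPM, reached into the WT-old range. The log2 fold change was 1.09 (standard error 0.113, adjusted p = 1.1e-09).

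Other called genes of the cluster rose by less. Tsp42Ei was at 26.6 to 45.3 CPM in WT (median 36.7) and 36.2 to 61.9 CPM in WT-old (median 46.8), a log2 fold change of 0.43 (standard error 0.0385, adjusted p = 4.3e-11). Tsp42El went from 45.8 to 83.3 CPM in WT (median 64.2) and from 65.4 to 124.1 CPM in WT-old (median 84.6), a log2 fold change of 0.44 (standard error 0.0577, adjusted p = 1.4e-07). For both genes the ranges overlap, and WT-old was above WT at each of the 10 shared timepoints. This was also so for Tsp42Ed, Tsp42Ee, Tsp42Ef, Tsp42Eg and Tsp42Er, and the share of all genes is not given here.

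Tsp42Ee, the most abundant member, was at 233.8 to 283.8 CPM in WT (median 267) and 272.1 to 357.1 CPM in WT-old (median 294), with a log2 fold change of 0.21 (adjusted p = 2.1e-05). Tsp42Ef was at 57.5 to 75.7 CPM in WT (median 68.0) and 65.9 to 100.9 CPM in WT-old (median 79.0), with 0.25 (adjusted p = 3.4e-05). Tsp42Eg was at 29.3 to 44.5 CPM (median 33.9) in WT and 33.6 to 56.4 CPM (median 37.6) in WT-old, with 0.19 (adjusted p = 0.00064). For all of these the libraries of both groups overlap. Tsp42Eh was higher by 0.29 on the log2 scale (adjusted p = 0.00082) and, outside the cluster, Tsp96F by 0.15 (adjusted p = 0.007).

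Tsp2A, a component of the smooth septate junctions that seal the midgut and the Malpighian tubules, was low but higher in WT-old, at 0.257 to 1.42 CPM in WT (median 0.509) and 0.724 to 2.21 CPM in WT-old (median 1.57). The log2 fold change was 1.36 (standard error 0.340, adjusted p = 0.002) and it was 1.61 without the libraries with body markers (adjusted p = 3.7e-05). It fell to 0.74 with the body marker score in the model (adjusted p = 0.0087). That score counts midgut markers beside those of the accessory gland. In libraries without body markers the sum behind it was 94.6 to 430 CPM in WT-old and 37.4 to 60.8 CPM in WT. The score thus also differed with age, and the 2 cannot be told apart here. In the second sampling day alone it was 1.01 (adjusted p = 0.31). The 12 midgut markers had a summed median of 186 CPM in WT-old (91.7 to 386 CPM) and 55.3 CPM in WT (37.7 to 194 CPM), and their part in the result was not tested.

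Lower in WT-old were Tsp42Ej, at 131.1 to 239.7 CPM in WT (median 159) and 105.8 to 184 CPM in WT-old (median 143), by -0.26 on the log2 scale (standard error 0.0576, adjusted p = 0.00061), Tsp39D by -0.24 (adjusted p = 0.011) and Tsp66E by -0.12 (adjusted p = 0.0035). Tsp39D and Tsp66E lost the call without the libraries with body markers (adjusted p = 0.059 and 0.052), and Tsp42Ej, Tsp39D and Tsp66E all lost it with no time of day in the model (adjusted p = 0.12, 0.23 and 0.063). In Tsp42Ej the difference was -0.39 in light hours (adjusted p = 0.00054) and -0.13 in dark hours (adjusted p = 0.22), and the difference between light and dark was not tested. The summed photoreceptor markers were also lower in WT-old (median 49795 CPM) than in WT (57747 CPM), and their part in the result was not tested.

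**Figure D3:**
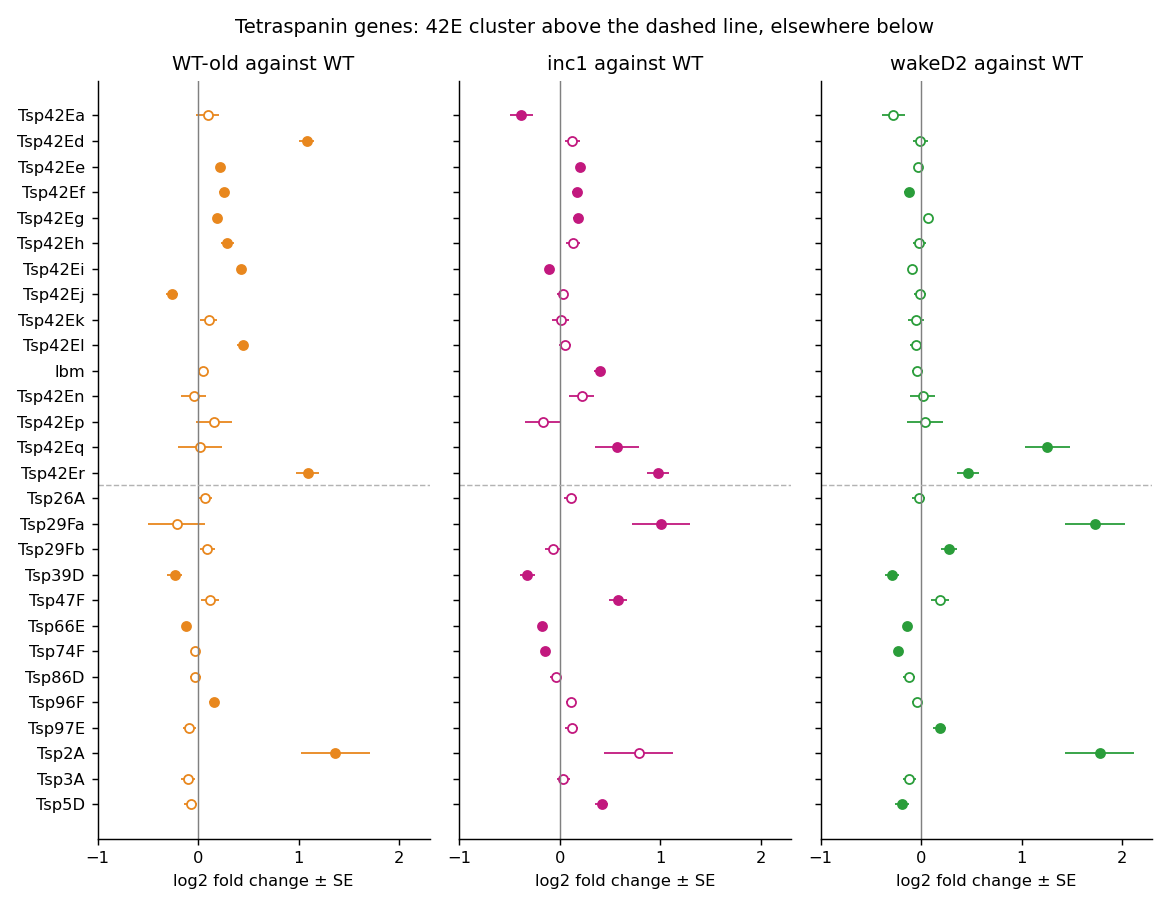
Log2 fold change against WT with its standard error for the 28 tested members in WT-old, inc1 and wakeD2, cluster genes in chromosome order above the dashed line. Filled points have an adjusted p under 0.05. In WT-old 8 of 15 cluster genes are filled to the right of 0, with Tsp42Ed at 1.08 and Tsp42Er at 1.09.

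The comparison of inc1 with WT asked which members differ in a short-sleeping mutant of the same age. In inc1, 9 of 28 members were higher, where 15.1% of all genes were, and 5 were lower, where 18.4% of all genes were. No member had all inc1 libraries above or below all WT libraries, which 0.792% and 1.28% of all genes had. The median log2 fold change was 0.11 over the members and 0.02 over all genes. Summed head fat body markers, which mostly follow Yp1, were higher in inc1, with a median of 45792 CPM (32545 to 67493 CPM) against 31296 CPM (24494 to 37510 CPM) in WT. That sum is no measure of fat body alone, and the part of these markers in these results was not tested.

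Tsp42Er was again among the changed genes, at 5.02 to 13.3 CPM in inc1 (median 9.41) and 2.79 to 8.81 CPM in WT (median 4.70), with a log2 fold change of 0.98 (standard error 0.113, adjusted p = 5.5e-09). inc1 and WT-old did not differ in it beyond their spread (0.11, standard error 0.105, adjusted p = 0.40). lbm, which is known for its role when motor axons form synapses, was at 13.3 to 28.7 CPM in inc1 (median 21.7) and 10.3 to 21.7 CPM in WT (median 16.7), with 0.40 (standard error 0.0511, adjusted p = 5.7e-08). It was higher in inc1 than in WT-old too, by 0.35 on the log2 scale (adjusted p = 1.2e-07), and higher than in wakeD2 by 0.43 (adjusted p = 2.2e-09). The inc1 value of lbm exceeded that of WT at each of the 10 shared timepoints, as did those of Tsp42Ee, Tsp42Er, Tsp47F and Tsp5D.

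Outside the cluster, Tsp47F and Tsp5D were higher in inc1. Tsp47F was at 2.45 to 3.80 CPM in inc1 (median 3.29) and 1.52 to 2.97 CPM in WT (median 2.13), with a log2 fold change of 0.58 (standard error 0.0899, adjusted p = 2.1e-06). Tsp5D, on chromosome X at 4552 kb from inc, was at 35.0 to 59.6 CPM in inc1 (median 43.3) and 27.2 to 46.045 CPM in WT (median 32.0), with 0.42 (standard error 0.0658, adjusted p = 2.6e-06). Most inc1 libraries lay above most WT libraries for both genes, and the ranges overlap. WT-old lay below inc1 in Tsp5D by 0.50 on the log2 scale (adjusted p = 1.5e-08).

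The remaining higher members of inc1 changed little in level or were scarce. Tsp42Ee was at 258.1 to 368.2 CPM (median 297) and higher by 0.21 on the log2 scale (adjusted p = 2.6e-05), Tsp42Eg was at 32.5 to 44.7 CPM (median 39.5) and higher by 0.18 (adjusted p = 0.00097), and Tsp42Ef was higher by 0.17 (adjusted p = 0.0029). Tsp29Fa, at 0.937 to 3.42 CPM in inc1 (median 2.02) and 0.692 to 2.201 CPM in WT (median 1.02), was higher by 1.01 (adjusted p = 0.0062), and by 0.93 without the libraries with body markers (adjusted p = 0.00044). Tsp42Eq was higher by 0.57 (adjusted p = 0.043), a call that 3 of 14 alternative fits kept.

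Of the 5 lower members, Tsp66E was at 66.2 to 84.7 CPM in inc1 (median 75.6) and 77.7 to 93.3 CPM in WT (median 86.7), a log2 fold change of -0.18 (standard error 0.0311, adjusted p = 1.6e-05). Tsp39D was at 28.2 to 55.3 CPM in inc1 (median 41.2) and 36.9 to 78.7 CPM in WT (median 53.3), with -0.32 (standard error 0.0711, adjusted p = 0.00045). Tsp74F was lower by -0.15 (adjusted p = 0.0012), Tsp42Ea by -0.38 (adjusted p = 0.0076) and Tsp42Ei by -0.11 (adjusted p = 0.027). Of these, Tsp66E was called in all 14 alternative fits and Tsp42Ei in 6.

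In wakeD2, 6 of 28 members were higher, where 12.1% of all genes were, and 5 were lower, where 11.6% of all genes were. The libraries never separated fully from WT in any member, as they did for 0.261% of all genes upwards and 0.562% downwards. The highest changes were those of Tsp2A, Tsp29Fa and Tsp42Eq, each with its highest values in the 3 wakeD2 libraries richest in accessory gland markers (ZT0, ZT12 and ZT24). With the body marker score in the model edgeR called Tsp97E alone (5 members at an unadjusted p under 0.05), while the share of all genes at an unadjusted p under 0.05 went from 33.5% to 19%. Without the libraries with body markers 1 wakeD2 library is left, at ZT36, and its spread is assumed to be that of the other groups. That fit called 0 of 28 members (1 at an unadjusted p under 0.05) and had 4.7% of all genes at an unadjusted p under 0.05, so it can say little of any gene.

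Tsp29Fa was at 7.59, 4.13, 2.296, 7.55, 2.84 and 3.05 CPM in wakeD2 from ZT0 to ZT20 and at 7.16, 3.04, 1.49, 0.852, 2.80 and 1.49 CPM from ZT24 to ZT44. WT was at 0.692 to 2.201 CPM (median 1.02). The libraries at ZT0, ZT12 and ZT24 were the highest, and the single one with no body markers, at ZT36, was the lowest. The log2 fold change of Tsp29Fa was 1.73 (standard error 0.297, adjusted p = 3.2e-05), with the body marker score in the model it was 0.31 (adjusted p = 0.52), and the single wakeD2 library without body markers gave -0.36.

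Within each group, every library with body markers had more Tsp29Fa than every library without. The ranges were 1.30 to 2.201 against 0.692 to 1.14 CPM in WT, 2.42 to 3.42 against 0.937 to 2.17 CPM in inc1, 1.49 to 7.59 against 0.852 CPM in wakeD2, and 1.89 against 0.452 to 1.25 CPM in WT-old. The untested Tsp33B separated in the same way in all 4 groups, at 0.0499 to 3.34 CPM (median 0.529) in the 19 libraries with body markers and 0 to 0.0901 CPM (median 0) in the 27 others. In wakeD2 and WT-old 1 side is a single library, so the separation there says little for either gene. The share of all genes that separate in this way is not given here. Tsp42A had medians of 0.397 and 0 CPM, and Tsp42Ec of 1.36 and 0.692 CPM, in these libraries. Since body markers and genotype coincide in 11 of 12 wakeD2 libraries, they cannot be told apart for these genes.

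Tsp2A and Tsp42Eq had the same high libraries in wakeD2 and did not separate by body markers in WT, inc1 or WT-old. Tsp2A was at 5.44, 6.02 and 4.00 CPM in wakeD2 at ZT0, ZT12 and ZT24 and at 0.568 to 2.18 CPM in the other 9 libraries, against a WT median of 0.509 CPM. Its log2 fold change was 1.78 (standard error 0.343, adjusted p = 0.00015), and 0.16 with the body marker score in the model (adjusted p = 0.81). Tsp42Eq was at 5.49, 5.40 and 4.89 CPM at those hours and at 1.08 to 2.65 CPM otherwise, against a WT median of 1.15 CPM, and its log2 fold change of 1.26 (adjusted p = 4.7e-05) became 0.42 with the score (adjusted p = 0.31).

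**Figure D4:**
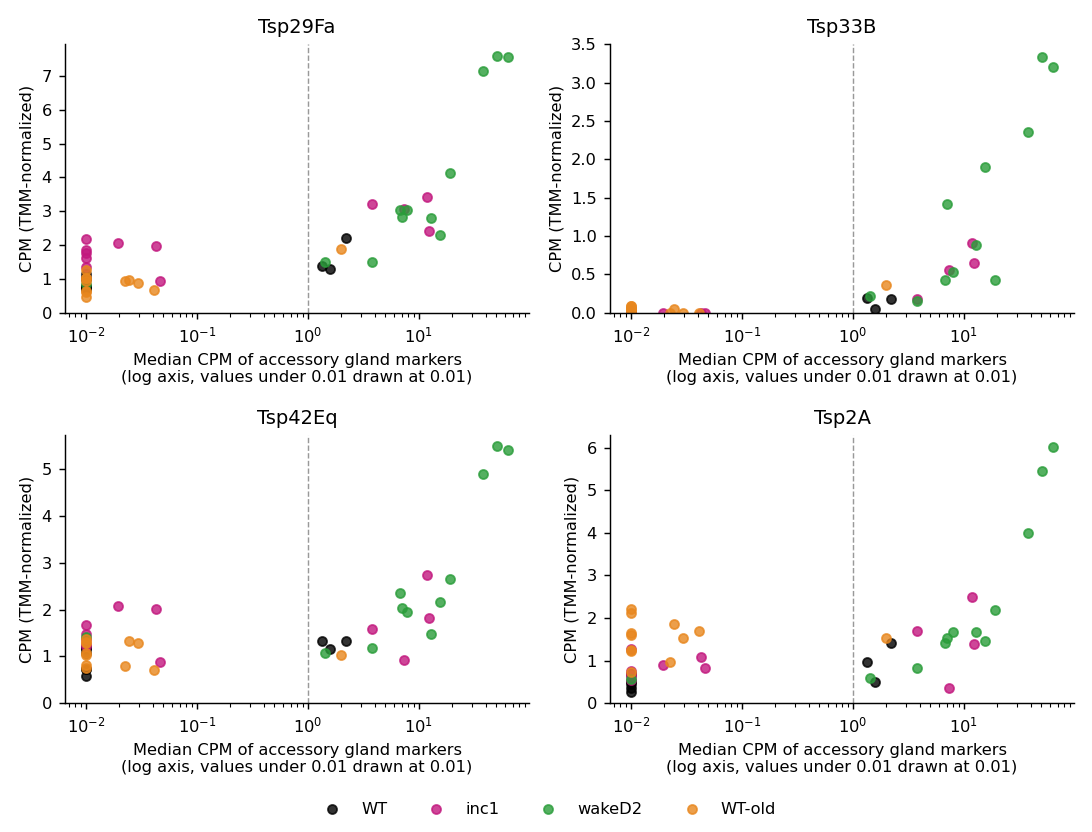
CPM of Tsp29Fa, Tsp33B, Tsp42Eq and Tsp2A against the median CPM of 10 accessory gland markers (log axis), 1 point per library, coloured by group; the dashed line at 1 CPM divides libraries with body markers from the others. Tsp29Fa reaches 7.59 CPM and Tsp33B 3.34 CPM to the right of the line, and Tsp33B stays at or under 0.0901 CPM to its left.

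The other wakeD2 differences were small. Tsp74F was at 35.0 to 50.9 CPM in wakeD2 (median 40.7) and 42.9 to 54.1 CPM in WT (median 47.0), a log2 fold change of -0.23 (standard error 0.0355, adjusted p = 5.4e-06), and wakeD2 was below WT at all 10 shared timepoints. With the body marker score it was -0.12 (adjusted p = 0.068). Tsp42Ea in wakeD2 was also below WT at all of these timepoints. Tsp42Er was at 3.80 to 9.05 CPM (median 6.74), above WT at 9 of 10 shared timepoints, with a log2 fold change of 0.47 (adjusted p = 0.0018), and 0.42 with the score (adjusted p = 0.09). It was lower than in inc1 by 0.51 on the log2 scale (adjusted p = 0.00018 for inc1 against wakeD2).

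Tsp39D was lower in wakeD2 by -0.29 (adjusted p = 0.0022) and Tsp66E by -0.14 (adjusted p = 0.00084), and neither was called with the score in the model. Tsp29Fb was higher by 0.28 (adjusted p = 0.0072), and -0.04 with the score (adjusted p = 0.81). Tsp97E, on 3R at 4277 kb from wake, was higher by 0.18 (adjusted p = 0.029). Tsp5D was lower by -0.19 (adjusted p = 0.028) and Tsp42Ef by -0.12 (adjusted p = 0.044). Of 14 alternative fits, 6, 6 and 1 kept the calls of Tsp97E, Tsp5D and Tsp42Ef. Tsp5D was no longer called without the WT library at ZT0 (adjusted p = 0.075), the highest of its group at 46.045 CPM.

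All 3 comparisons share the WT libraries. Tsp42Ef was higher in WT-old and inc1 and lower in wakeD2, at medians of 79.0, 74.5 and 62.8 CPM against 68.0 CPM in WT, and inc1 exceeded wakeD2 by 0.29 on the log2 scale (adjusted p = 8.5e-07). The 6 members without a call in any of them were the TspanC8 genes Tsp26A, Tsp3A and Tsp86D and the cluster genes Tsp42Ek, Tsp42En and Tsp42Ep.

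The groups were also compared with one another, a choice made after seeing the data and with no check for body markers. WT-old had 6 of 28 members higher than inc1 (25.9% of all genes) and 7 lower (24.4%), and 11 higher than wakeD2 (24.8%) and 5 lower (20.9%). inc1 had 9 higher than wakeD2 (19.5%) and 4 lower (21.3%). Tsp5D differed most clearly between the mutants, by 0.61 on the log2 scale (standard error 0.0622, adjusted p = 2.6e-10), at medians of 43.3 CPM in inc1 and 29.7 CPM in wakeD2. Tsp47F was higher in inc1 than in wakeD2 by 0.40 (adjusted p = 3e-04), and Tsp42Ei was higher in WT-old than in inc1 by 0.53 (adjusted p = 1.7e-15).

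Genes that work with tetraspanins moved in a mixed way. Beside the lists below, 15.3% of all genes were higher and 12.4% lower in WT-old. In inc1 these shares were 15.1% and 18.4%, and in wakeD2 12.1% and 11.6%, so counts within such short lists say little. Of 5 genes of the ADAM and Notch list, 3 were lower in WT-old and none higher. These were kuz, which encodes Kuzbanian, by -0.24 on the log2 scale (adjusted p = 0.0052), N (Notch) by -0.33 (adjusted p = 2.6e-05) and its ligand Ser by -0.30 (adjusted p = 0.019). Without the libraries with body markers, kuz and Ser lost these calls (adjusted p = 0.14 and 0.058). In inc1 1 was higher and 1 lower, Ser by 0.34 (adjusted p = 0.0077) and kuz by -0.36 (adjusted p = 5.5e-05), and in wakeD2 0 were higher and 3 lower, kuz by -0.28 (adjusted p = 0.0022), the ADAM protease gene Meltrin by -0.16 (adjusted p = 0.007) and N by -0.15 (adjusted p = 0.049). With the body marker score in the model none of these wakeD2 calls was kept (adjusted p = 0.11 for kuz, 0.25 for Meltrin and 0.56 for N).

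Of the 4 smooth septate junction genes, none was called in WT-old in the main fit, and Tsp2A was higher there. With the body marker score, chosen for these lists after seeing the data, mesh was lower in WT-old by -1.23 (adjusted p = 4.7e-05). With it mesh was also lower in inc1 by -0.58 (adjusted p = 0.04), and Ssk in WT-old by -0.30 (adjusted p = 0.039). Without the libraries with body markers none of these was called (adjusted p = 0.59, 0.98 and 0.63). In inc1 Ssk, a membrane partner of Tsp2A, was higher by 1.52 (adjusted p = 4.5e-12) and hoka lower by -1.499 (adjusted p = 7.7e-12). Tsp2A, on chromosome X at 135.3 kb from inc, was at 0.79 in inc1 with an adjusted p of 0.073. A part of this nearness was not tested. In wakeD2 mesh was higher by 2.09 (adjusted p = 0.00061), at 0.710 to 16.9 CPM against 0.445 to 4.68 CPM in WT, and cora lower by -0.12 (adjusted p = 0.005). With the score in the model, wakeD2 mesh was at -0.13 (adjusted p = 0.84) and cora at -0.10 (adjusted p = 0.24).

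Of 4 tested integrin genes, mys, a beta subunit, was higher in WT-old by 0.18 (adjusted p = 0.00071) and Itgbn, another beta subunit, by 1.24 (adjusted p = 1.1e-06). The alpha subunit gene mew was lower in inc1 by -0.17 (adjusted p = 0.018) and in wakeD2 by -0.16 (adjusted p = 0.034). It lost the inc1 call without the libraries with body markers (adjusted p = 0.099) and the wakeD2 call with the score (adjusted p = 0.092). Of 7 genes of rhodopsin and its arrestins, the system in which Tsp42Ej acts, 4 were lower and 0 higher in WT-old, 4 lower and 0 higher in inc1, and 3 lower and 2 higher in wakeD2, where 12.4%, 18.4% and 11.6% of all genes were lower. In WT-old these were ninaE by -0.19 (adjusted p = 0.0022), Rh5 by -0.24 (adjusted p = 0.00076), Arr1 by -0.37 (adjusted p = 9e-06) and Arr2 by -0.38 (adjusted p = 8e-07). Here ninaE lost its call without the libraries with body markers (adjusted p = 0.065) and with the score (adjusted p = 0.054). In inc1 the rhodopsin genes Rh3 (-0.39, adjusted p = 8.8e-08), Rh4 (-0.45, adjusted p = 6.3e-08), Rh5 (-0.75, adjusted p = 1.4e-14) and Rh6 (-0.61, adjusted p = 3.9e-09) were lower. In wakeD2 Rh3 (-0.14, adjusted p = 0.042), Rh4 (-0.32, adjusted p = 7.4e-05) and Rh5 (-0.76, adjusted p = 8.4e-14) were lower, and ninaE (0.17, adjusted p = 0.0049) and Arr2 (0.18, adjusted p = 0.016) higher, and with the score Rh3 alone of these lost its call (adjusted p = 0.90). The related gene TM4SF was not called in any comparison.

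The sampling every 4 h also allowed a test for a 24 h rhythm within each group. Tsp97E and Tsp42Ej were the members called most often. In WT 2 of 28 members were called, where 6.11% of all genes were, in inc1 1 (5.03%), in wakeD2 1 (5.92%) and in WT-old 2 (19.6%). At an unadjusted p under 0.05 there were 2, 2, 5 and 7. In WT-old the TMM normalization factors of the libraries were 1.00143 to 1.02475 in light hours and 1.10046 to 1.14399 in dark hours. In WT, inc1 and wakeD2 the factors of light and dark hours overlapped. The part of this split in the WT-old rhythm calls, those of Tsp42Ej and Tsp96F among them, was not tested.

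Tsp97E (3R from 26961064 to 26964817) was high late in the light and low at dawn. In wakeD2 it was at 406.7 and 321.5 CPM at ZT8 and ZT32 and at 133.0 and 145.5 CPM at ZT0 and ZT24. In WT it was at 254.5 and 265.1 CPM and at 147.9 and 155.4 CPM at these hours. The fitted peak lay at 10.4 h in WT (adjusted p = 0.029), 8.94 h in inc1 (adjusted p = 0.0057) and 9.55 h in wakeD2 (adjusted p = 2.6e-06), where the ratio of peak to trough was 2.24, and WT-old did not pass (adjusted p = 0.058). The WT call of Tsp97E was lost at the 10 shared timepoints (adjusted p = 0.067) and by a cosine F test on log2 CPM (adjusted p = 0.15), as was that of inc1 by the cosine test (adjusted p = 0.17), and that of wakeD2 was kept in both (adjusted p = 4.4e-05 and 0.022).

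Tsp42Ej had its fitted peak near lights on, at 1.56 h in WT (peak to trough 1.57, adjusted p = 0.039) and 23.7 h in WT-old (peak to trough 1.52, adjusted p = 0.013), and was not called in inc1 (adjusted p = 0.13) or wakeD2 (adjusted p = 0.27). Its WT call was lost at the 10 shared timepoints (adjusted p = 0.082) and by the cosine test (adjusted p = 0.30), and its WT-old call without the libraries with body markers (adjusted p = 0.065). Tsp96F was called in WT-old alone (peak 11.1 h, adjusted p = 0.047), and lost that call at the 10 shared timepoints (adjusted p = 0.091) and by the cosine test (adjusted p = 0.082). The rhythm differed from that of WT in 0 members by edgeR's test in inc1, wakeD2 and WT-old, where 0.0301%, 0% and 1.65% of all genes differed, and at an unadjusted p under 0.05 in 1, 1 and 0 members. The one in wakeD2 was Tsp97E (unadjusted p = 0.027). Tsp42Ed was not called rhythmic in any group (adjusted p = 1 in WT, 0.55 in inc1, 0.83 in wakeD2 and 0.87 in WT-old).

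More members were called for a course that repeats every 12 h, a test added after seeing the data. The series lists its samples in 3 blocks of 16, 14 and 16 libraries that are exactly these sets of hours (ZT0, ZT12, ZT24 and ZT36, then ZT4, ZT16, ZT28 and ZT40, then ZT8, ZT20, ZT32 and ZT44). Whether the libraries of a block were handled together is not given in the sources used here, so a 12 h course in the flies and a difference between such blocks cannot be told apart. With 12 h terms beside the 24 h terms, 11 of 28 members were called in WT, 15 in inc1, 18 in wakeD2 and 11 in WT-old. The pattern ran through the whole table, since 30.6%, 42.7%, 38.5% and 32.3% of all genes were called. Called in all 4 groups were 8 of 28 members, where 20.6% of all genes were, 6 in the cluster (Tsp42Ea, Tsp42Eg, Tsp42Eh, Tsp42Ei, Tsp42El and lbm) and 2 elsewhere (Tsp39D and Tsp97E).

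lbm was high at ZT0, ZT12, ZT24 and ZT36 and low at ZT8, ZT20, ZT32 and ZT44. The means were 21.2 ± 0.512 and 12.1 ± 1.499 CPM in WT, 27.8 ± 0.953 and 16.1 ± 2.73 CPM in inc1, 21.2 ± 0.454 and 11.95 ± 1.18 CPM in wakeD2, and 22.8 ± 1.82 and 11.9 ± 1.40 CPM in WT-old (SD, 4 libraries each). The high and low hours of lbm did not overlap in any group, and the same held for Tsp39D, Tsp42Ea, Tsp42Ei and Tsp42Er. The share of all genes for which this held is not given here. For lbm the adjusted p of edgeR's 12 h terms was 1.6e-06, 8.7e-07, 6.1e-07 and 1.1e-07.

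Tsp42Ei had the same course. Its means at these hours were 42.9 ± 2.37 and 27.9 ± 2.19 CPM in WT, 41.0 ± 1.76 and 25.3 ± 1.30 CPM in inc1, 43.1 ± 0.736 and 25.5 ± 1.98 CPM in wakeD2, and 58.2 ± 4.18 and 38.6 ± 2.17 CPM in WT-old (SD, 4 libraries each). Tsp42Ea, a scarce gene, was at 4.86 ± 0.672 and 1.75 ± 0.297 CPM in WT and at 5.55 ± 0.425 and 1.82 ± 0.565 CPM in WT-old. Tsp97E went the other way, with a 12 h peak between 7.33 and 8.11 h in the 4 groups.

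Other measures moved at the same hours. The summed neuron markers were at 3219 to 5485 CPM in the 16 libraries at ZT8, ZT20, ZT32 and ZT44, at 2169 to 3039 CPM in the 16 libraries at ZT0, ZT12, ZT24 and ZT36, and at 2306 to 3134 CPM in the 14 between. The summed ejaculatory bulb markers had medians of 1686, 2507 and 2247 CPM in these sets. That sum mostly follows EbpIII, which was at 914 CPM or more in every library (median 2069 CPM). Ebp and EbpII had medians of 0.0776 and 0.0460 CPM, so the sum is no measure of bulb tissue. Libraries with body markers numbered 8, 5 and 6, but in wakeD2 the medians of the accessory gland markers were highest at ZT0, ZT12 and ZT24, at 50.4, 64.1 and 38.3 CPM against at most 19.2 CPM at other hours. The wakeD2 12 h calls of Tsp2A, Tsp29Fa, Tsp29Fb and Tsp42Eq peak near these hours. Without the libraries with body markers, wakeD2 could not be fitted. The 12 h terms then called 5 members in WT (16.5% of all genes), 14 in inc1 (34.1%) and 7 in WT-old (24.3%). Those called in all 3 of these groups were lbm, Tsp39D, Tsp42Ea, Tsp42Ei and Tsp42El, 5 members, where 11.7% of all genes were. The part of the neuron markers, EbpIII and the body markers in the result was not tested otherwise.

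**Figure D5:**
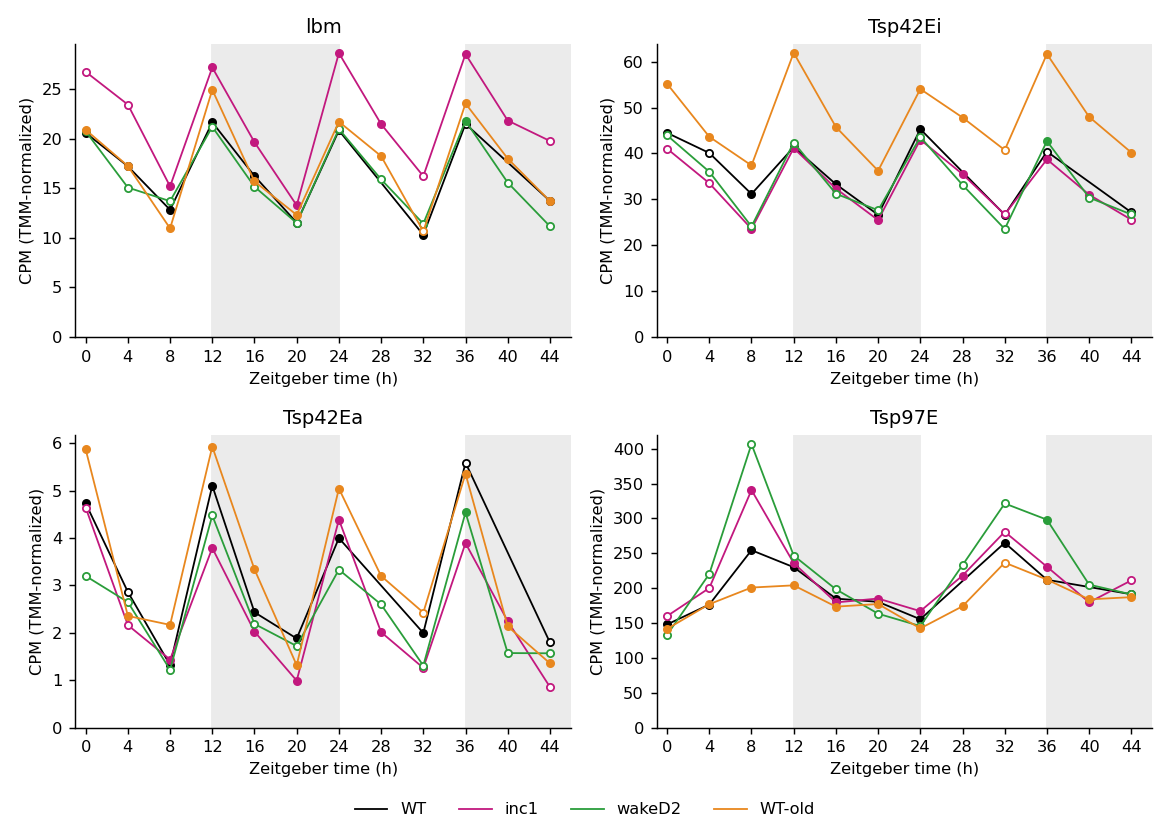
CPM of lbm, Tsp42Ei, Tsp42Ea and Tsp97E against Zeitgeber time in h, 1 library per point, lines joining the libraries of WT, inc1, wakeD2 and WT-old; open points are libraries with body markers and grey marks the dark hours. lbm falls from 21.2 CPM on average at ZT0, ZT12, ZT24 and ZT36 in WT to 12.1 CPM at ZT8, ZT20, ZT32 and ZT44, while Tsp97E is highest at ZT8 in wakeD2 with 406.7 CPM.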

How the data were processed

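Heads of WT, inc1, wakeD2 and WT-old flies were profiled by mRNA sequencing in 46 libraries (stranded kit, single reads of 75 bp). The authors converted the reads with bcl2fastq 2.20, aligned them with STAR 2.4.2a to Drosophila Release 6.13 and counted them per gene with featureCounts, and the deposited table holds these raw counts. Its settings for strand and multiply mapped reads are not given in the sources used here. Positions and exon lengths came from Ensembl release 115, so gene models may differ from those counted. Total counts were 12630462 to 29802881 per library, and floors of 3 counts cover counting error only.

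Genes under 1 CPM in more than 28 libraries were removed, and 9969 were fitted with edgeR 4.0.16 in R 4.3.3 (quasi-likelihood test, TMM normalization, prior count 2) on all 46 libraries with group and 6 times of day, with Benjamini-Hochberg adjustment over all genes and a threshold of 0.05. Standard errors were derived from the fold change and the F value, and intervals are 95%. CPM were TMM-normalized. Rhythm was tested with 24 h cosine and sine terms within each group. DESeq2 1.42.0, other normalization, filters, single sampling days and the score of body markers (accessory gland and midgut) were alternatives. The fits were tested on simulated data. Every member with an adjusted p under 0.05 in a comparison or a rhythm test was named, with Tsp42Ed and the called genes of 5 partner lists, and up to 8 members per comparison were given with their values. The members and lists were chosen with earlier results of these data known. Figures were drawn with Python 3.11.15 and matplotlib 3.10.9.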

Additional observations from a re-analysis of the deposited data

Results flagged for a closer look

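In WT, the group with 10 libraries, the highest or lowest library of each of the 28 tested members was compared with its neighbour by Dixon's ratio. Chance puts about 1 in 20 groups past its critical value. Tsp42Ed stood apart at ZT36 (ratio 0.559), with 70.9 CPM against 53.0 CPM in the next library, and WT-old remained above it in all libraries. Tsp29Fa stood apart at ZT36 (ratio 0.549), with 2.201 against 1.37 CPM. The library at ZT36 is one of the 3 WT libraries with body markers. Tsp5D stood apart at ZT0 (ratio 0.577), with 46.045 against 35.2 CPM, in a library without body markers.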

How the results depend on the processing

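Of 3 members lower in WT-old, 1 was called without the libraries with body markers, 0 with no time of day in the model, 1 on the first day, 0 on the second and 0 in dark hours. Of 5 lower in inc1, the counts were 3 without those libraries, 1 with no time of day, 2 and 1 on the first and second day, and 3 in light and 3 in dark hours, and of 9 higher, 5 with no time of day. Of 5 lower in wakeD2, 3 were called with no filter, 0 without the libraries with body markers, 2 with no time of day, 0 with the body marker score, 3 and 0 on the first and second day, 3 in light and 1 in dark hours, and 3 without the WT library at ZT0. Of 6 higher in wakeD2, the counts were 0 without those libraries, 1 with the score, 0 on the second day and 3 in dark hours. In wakeD2 the log2 fold change reversed without those libraries, where 1 pool at ZT36 stands against WT, for Tsp2A (-0.11), Tsp5D (0.017), Tsp29Fa (-0.36), Tsp29Fb (-0.19) and Tsp66E (0.025), and with the score for Tsp29Fb (-0.045). Rhythm calls in WT were 1 with no filter, 1 without those libraries, 0 at the 10 shared timepoints and 0 by a cosine F test on log2 CPM. In inc1 they were 0 with no filter, 0 by the cosine test and 2 with 12 h terms added, in wakeD2 4 with 12 h terms, and in WT-old 1 with no filter, 1 without those libraries, 1 at the shared timepoints, 1 by the cosine test and 9 with 12 h terms. The cause was not tested. The fits with 12 h terms and without the WT library at ZT0 or ZT36 were chosen after seeing the data. Over single called members and settings, direction and side of the threshold held in 159 cases for WT-old, 157 for inc1 and 95 for wakeD2, and significance was lost with the same direction in 23, 39 and 53.

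When timepoints entered the model as a replicate block, counts stayed at 10 and 3, 9 and 5, and 6 and 5, but in inc1 Tsp42Eq lost its call (adjusted p = 0.051) and Tsp96F gained one (adjusted p = 0.044). Residuals of libraries of the same timepoint correlated from -0.954 to 0.904 across genes, with means from -0.431 to 0.213 over pairs of groups. So wide a range cannot show whether pools of a timepoint share more than the hour.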
